A study of Danio rerio with 12 samples.

Results

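The homeobox gene otpb and 6 hypothalamic neuropeptide genes, avp, pomca, npy, gnrh3, hcrt and trh, were examined in zebrafish brains after 4 social experiences. Members were chosen by gene symbol, and 5 of the 7 genes had a probe set with that single symbol on the array, giving 6 of 15502 tested probe sets because gnrh3 had 2. The genes hcrt and trh matched no probe set by symbol or gene identifier and are not analysed here. The gene otpb was chosen because it was lower in losers than in isolated fish on these same arrays. Its values in that comparison, and in every other comparison that uses the isolated or the loser arrays, are therefore a description with no test, and only the difference between winners and mirror fighters leaves those arrays out.

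RNA from the whole brain of adult wild-type zebrafish of the AB strain was hybridized to 12 Affymetrix arrays, 3 per group. Every fish had first spent 5 days alone, and the brain was collected once the 30 min manipulation had ended. Isolated fish met no opponent, mirror fighters attacked their own reflection, a contest without an outcome, and winners and losers came from fights with a real opponent. Whether 1 brain or several went on an array is not stated, so p-values measure only the spread between these samples, which may be technical, and the number of arrays limits the precision.

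Otp is a homeodomain transcription factor of the hypothalamus and preoptic area. In zebrafish and mouse it is needed for the development of several kinds of neuroendocrine neuron, among them cells that make vasotocin or vasopressin, its sister peptide isotocin or oxytocin, and releasing hormones. The neuropeptides are made as precursors, cut and packed into secretory granules, and act on receptors coupled to G proteins. Vasotocin, encoded by avp, acts in social behaviour and water balance, pomca encodes the precursor of corticotropin and melanocortins, npy promotes feeding, and gnrh3 encodes the gonadotropin-releasing hormone of the zebrafish forebrain.

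Signals are given as log2 intensity, so that a difference of 1 is a doubling. Signals are compared between arrays for the same probe set, never between probe sets. Probe sets with a mean below 5.02, the dimmest 25%, are called dim. Differences were fitted with limma, moderated over all 15502 probe sets, and the threshold for a call was 0.05 after Benjamini-Hochberg adjustment. In these whole-brain samples, fewer cells expressing a gene and less RNA per cell cannot be told apart.

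The bacterial controls added at hybridization were brighter on winner and loser arrays than on the others, by 1.03 on the log2 scale (exact permutation p = 0.0022, two-sided, 6 against 6 arrays). The highest isolated or mirror fighter array read 9.51 in these controls and the lowest winner or loser array 9.99. Winners and losers themselves differed by only -0.13 (losers minus winners, exact permutation p = 0.7). Because these controls separate the same groups, a fit with their level as a covariate leaves little of the group contrast to estimate. Some values of that fit are given below. Neuronal markers, of which 10 of 15 were measured and none was dim, had a summed signal 0.17 higher in fighters of a real opponent (exact permutation p = 0.0238, 6 against 6 arrays). Like the other marker sums below, this sum is the log2 of the added intensities, so that the brightest genes weigh most. Tests of 6 against 6 arrays pool groups and treat winner and loser arrays as independent. Against isolated fish alone this sum differed by 0.20 in winners and 0.09 in losers (exact permutation p = 0.3 and 0.5). Against mirror fighters alone it differed by 0.24 and 0.13 (exact permutation p = 0.1 for each). Gene by gene, 8 of the 10 neuronal markers were above 0 in winners against isolated fish, with a median of 0.17. In losers 5 were above 0 and 5 below, with a median of 0.0056. Against mirror fighters 8 were above 0 in winners and 6 in losers. No gene of this list, nor of the lists of 7 measured pineal and 2 measured olfactory markers, was called in any comparison. The log2 of the summed neuronal marker intensities ran from 15.04 to 15.39 in isolated fish, 15.11 to 15.23 in mirror fighters, 15.32 to 15.55 in winners and 15.28 to 15.31 in losers. The pineal sum differed from isolated fish by 0.31 in winners, 0.26 in losers and 0.16 in mirror fighters (exact permutation p = 0.1, 0.4 and 0.1). For the olfactory sum these differences were -0.61, -0.83 and -0.76 (exact permutation p = 0.8, 0.4 and 0.7). They rest largely on isolated array 2, whose sum was 8.66 beside 6.66 and 6.06 on the other isolated arrays. On that array the marker s100z read 8.53.

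The transcription factor otpb stood in 2 tiers, high without a real fight and low after one, with losers below winners. The isolated arrays read 8.15, 7.79 and 8.07, and the mirror fighter arrays 7.96, 8.29 and 7.997. Winners read 7.13, 7.44 and 7.38, and losers 6.88, 6.64 and 6.97. No winner or loser array reached the lowest isolated or mirror fighter array, and no loser array reached the lowest winner. The group means were 8.002 ± 0.19 (SD, n = 3) in isolated fish, 8.08 ± 0.18 in mirror fighters, 7.32 ± 0.16 in winners and 6.83 ± 0.17 in losers.

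**Figure D1:**
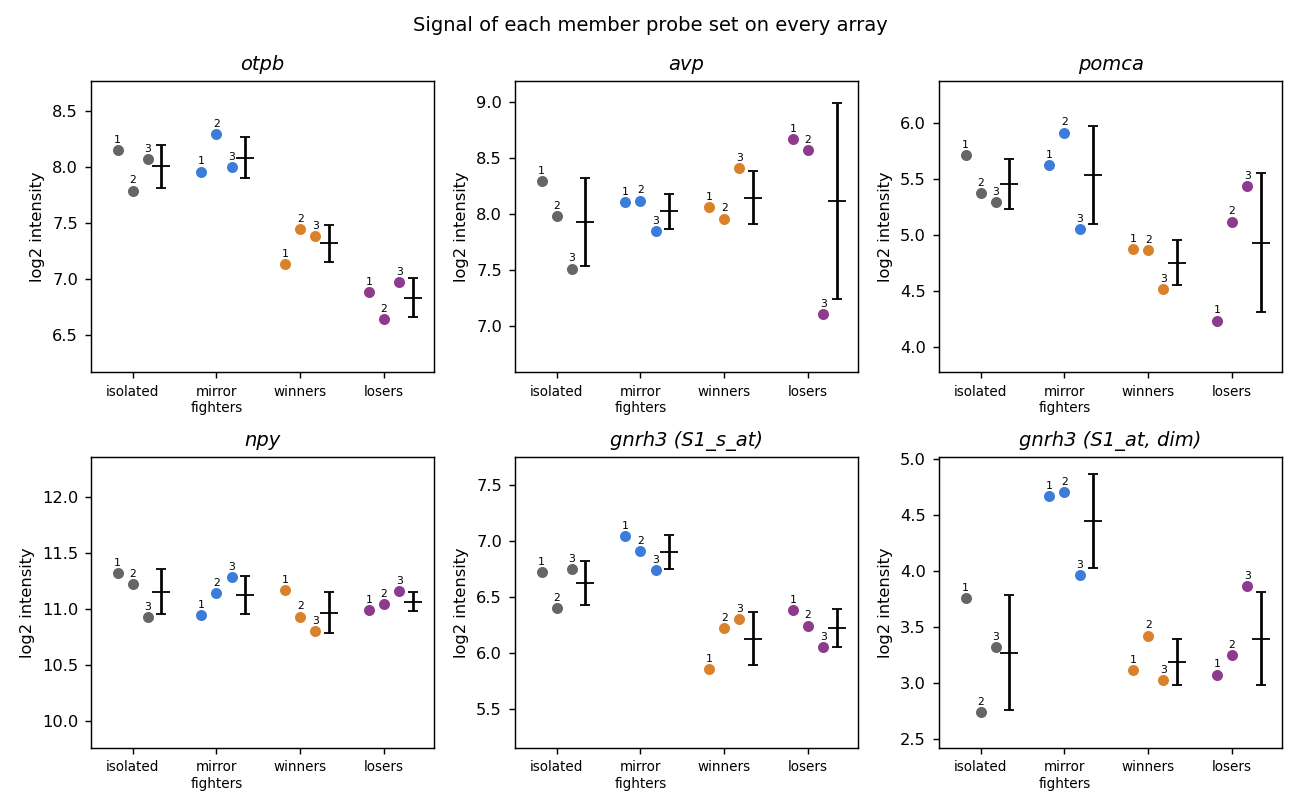
Log2 intensity (y axis, each panel spanning the same number of log2 units) of the 6 member probe sets on the 12 arrays, by group (x axis); points are arrays with their replicate number, and the dash with bars is the group mean ± SD (n = 3). For otpb the isolated and mirror fighter arrays sit between 7.79 and 8.29 and all winner and loser arrays at or below 7.44; for avp, loser array 3 lies at 7.11 and the other loser arrays at 8.57 and 8.67.

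Between losers and isolated fish the otpb difference was -1.17 ± 0.16 (SE), a signal of 0.444-fold, with a gap of 0.82 between the nearest arrays of the groups. This is the contrast that chose the gene. Losers stood at 0.42-fold of mirror fighters (-1.25 ± 0.16) and winners at 0.622-fold of isolated fish (-0.69 ± 0.16). Winners were above losers by 0.49 ± 0.16, with a gap of 0.16 between winner array 1 and loser array 3. Mirror fighters and isolated fish differed by 0.08 ± 0.16 and overlapped.

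Winners and mirror fighters, the pair of groups outside the comparison that chose otpb, differed by -0.77 ± 0.16, with a 95% interval from -1.12 to -0.41. The members were still chosen with earlier results of these data known. All 3 winner arrays lay below all 3 mirror fighter arrays, but the gene did not pass over all probe sets (limma adjusted p = 0.121). The error of this value pools the spread of all 12 arrays, and a fit to the 6 winner and mirror fighter arrays alone, added after seeing the data, gave -0.77 ± 0.17 (limma adjusted p = 0.241). Of all probe sets, 11.7% were lower in winners without overlap. With the level of the hybridization controls as a covariate the difference was -0.41 ± 0.37 (limma adjusted p = 0.738). limma called 1 probe set in this comparison, 0.00645% of those tested.

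None of the 5 neuropeptide probe sets was called in any of the 6 comparisons, where limma called 0.245% of all probe sets for winners against isolated fish, 0.568% for losers against isolated fish, 0.174% for losers against mirror fighters and 0% for mirror fighters against isolated fish and for winners against losers. Counting otpb, 1 of 6 member probe sets was called in losers against isolated fish and 1 of 6 in losers against mirror fighters, in both cases otpb, whose choice used the loser arrays, so nothing is read from either call. The call against mirror fighters was lost with the replicate block, with the covariate and without any 1 of 5 arrays, and the call against isolated fish with the covariate and without isolated array 1. At an unadjusted p under 0.05 the neuropeptide probe sets numbered 2 in winners against isolated fish, 1 in losers against isolated fish, 1 in mirror fighters against isolated fish, 3 in winners against mirror fighters, 2 in losers against mirror fighters and 0 in winners against losers. The corresponding shares of all probe sets were 19.6%, 21.2%, 3.83%, 16.8%, 17.7% and 4.14%.

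**Figure D2:**
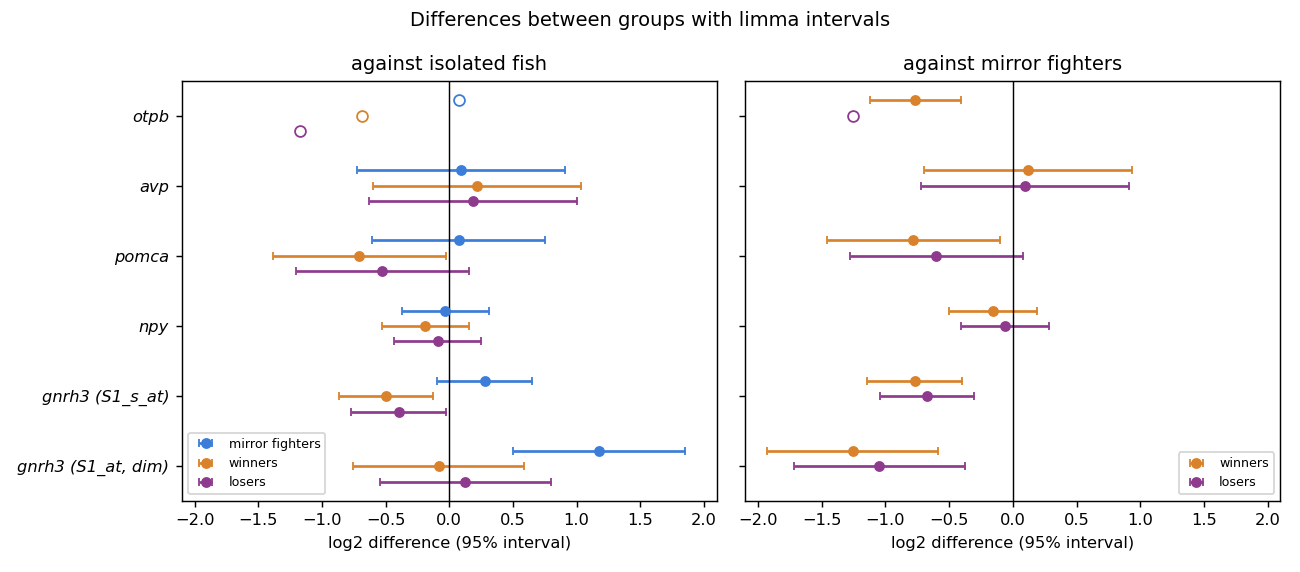
Log2 differences (x axis) of mirror fighters, winners and losers from isolated fish (left) and of winners and losers from mirror fighters (right) for each member probe set (y axis), with 95% intervals from limma; open points, without an interval, are the otpb values that share arrays with the choice of that gene. Both gnrh3 probe sets lie below 0 against mirror fighters, and the npy and avp intervals cover 0 throughout.

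The vasotocin gene avp was set apart by its spread and not by its means. Isolated arrays read 8.30, 7.98 and 7.51, mirror fighters 8.11, 8.12 and 7.85, and winners 8.07, 7.96 and 8.42. The losers read 8.67, 8.57 and 7.11, so that this single group held both the highest and the lowest of the 12 arrays. The SD within losers was 0.87, against 0.15 in mirror fighters, 0.24 in winners and 0.39 in isolated fish. The 4 group means ran from 7.93 in isolated fish to 8.15 in winners, a range of 0.22 that is smaller than the pooled SD of 0.50 within groups, and no neighbours in this order differed beyond their spread.

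Losers differed from isolated fish in avp by 0.19 ± 0.37 (SE; limma adjusted p = 0.802), with a 95% interval from -0.63 to 1.00. Loser array 3 decided this value. Without it the difference was 0.69 ± 0.23 (limma adjusted p = 0.13), and without loser array 1 it was -0.089. Without loser array 2 it was -0.041, and without isolated array 3 it was -0.021. With the level of the hybridization controls as a covariate avp stood at -1.22 ± 0.67 in losers and -1.37 in winners against isolated fish, neither called.

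The isotocin gene oxt, made by sister neurons of the preoptic area and no member of the set, had its extremes on the same loser arrays as avp. It read 11.99, 11.40 and 9.98 in losers, the first and the last being the highest and the lowest of its 12 values. Isolated fish read 11.17, 11.23 and 11.38, mirror fighters 11.92, 10.96 and 11.25, and winners 11.15, 11.80 and 11.01. Outside the losers the genes did not follow each other, since mirror fighter array 1 was high in oxt and stood between the others in avp. The signal of otpb on loser array 3, 6.97, was the highest of the losers. Losers minus isolated fish gave -0.14 ± 0.45 (SE) for oxt (limma adjusted p = 0.883).

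The precursor gene pomca was lower after real fights on most arrays, without passing the test. Isolated arrays read 5.71, 5.37 and 5.29, mirror fighters 5.62, 5.91 and 5.05, winners 4.87, 4.86 and 4.52, and losers 4.23, 5.12 and 5.43. All winner arrays lay below every isolated and mirror fighter array, while losers overlapped both. Winners were at 0.613-fold of isolated fish (-0.71 ± 0.31 SE, limma adjusted p = 0.242) and at 0.582-fold of mirror fighters (-0.78 ± 0.31, limma adjusted p = 0.249). Losers differed from isolated fish by -0.53 ± 0.31 (limma adjusted p = 0.343), and the value was -0.18 without loser array 1. With the level of the hybridization controls as a covariate both signs turned, to 0.21 in winners and 0.28 in losers against isolated fish. The signal was low, with a mean of 5.17 over all arrays, just above the dim limit.

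Because pomca is also made in the pituitary, the hormone genes of that gland were read beside it. Of 17 pituitary markers 6 were measured, pomca included, and 4 of these were dim. The growth hormone gene gh1 had group means from 4.15 to 4.82 and the prolactin gene prl from 3.76 to 4.34, both dim, and none of the 6 was called in any comparison. Like pomca, gh1 stood below its isolated level after real fights, with overlapping arrays. The gh1 differences were -0.26 ± 0.31 (SE) in winners and -0.67 ± 0.31 in losers (limma adjusted p = 0.668 and 0.24). In mirror fighters gh1 was at -0.42, where pomca was at 0.07. The other markers mostly went the other way against isolated fish, but not in losers against mirror fighters. Against isolated fish prl and cga stood at 0.33 and 0.31 in winners and at 0.21 and 0.22 in losers. The tshba difference was 0.30 in winners and -0.0051 in losers. The lhx3 means were 4.47 in isolated fish, 4.68 in winners and 4.73 in losers. Against mirror fighters 4 of the 6 markers, pomca included, were below 0 in losers and 2 in winners. The list medians there were -0.27 in losers and 0.07 in winners. The summed signal of the list without pomca ran from 6.55 to 6.93 in isolated fish, 6.66 to 7.05 in mirror fighters, 6.71 to 7.27 in winners and 6.85 to 6.90 in losers. Winners minus isolated fish was 0.16 in this sum (exact permutation p = 0.6, where 3 against 3 arrays cannot go below 0.1), and the part of pituitary tissue in the pomca values was not tested.

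The gene npy was the most even member in the main fit. Isolated arrays read 11.32, 11.22 and 10.93, mirror fighters 10.95, 11.15 and 11.29, winners 11.17, 10.93 and 10.80, and losers 10.99, 11.04 and 11.16. All 4 groups overlapped, and their means ran from 10.97 in winners to 11.16 in isolated fish. The largest difference, winners minus isolated fish, was -0.19 ± 0.15 (SE; limma adjusted p = 0.521), with a 95% interval from -0.53 to 0.15. Losers minus isolated fish was -0.09, with an interval from -0.44 to 0.25. A change of npy by a doubling in either direction lay outside the intervals of all 6 comparisons.

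The hormone gene gnrh3 was highest in mirror fighters on both of its probe sets. On the probe set that was not dim, whose name ends in s_at, isolated arrays read 6.72, 6.40 and 6.75, mirror fighters 7.05, 6.91 and 6.74, winners 5.86, 6.22 and 6.30, and losers 6.38, 6.24 and 6.05. Every winner and loser array lay below every isolated and mirror fighter array, though losers missed the isolated group by only 0.02. Isolated fish and mirror fighters overlapped by 1 array. Winners stood at 0.586-fold of mirror fighters (-0.77 ± 0.17 SE, limma adjusted p = 0.129) and losers at 0.626-fold (-0.67 ± 0.17, limma adjusted p = 0.127). Against isolated fish winners differed by -0.50 ± 0.17 (limma adjusted p = 0.169) and losers by -0.40 ± 0.17 (limma adjusted p = 0.207).

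The other gnrh3 probe set was dim, with a mean of 3.58, and placed isolated fish with the fighters of real opponents. Isolated arrays read 3.76, 2.74 and 3.32, mirror fighters 4.67, 4.71 and 3.96, winners 3.11, 3.42 and 3.03, and losers 3.08, 3.25 and 3.87. All 3 mirror fighter arrays were above the other 9, the nearest being loser array 3. Mirror fighters differed from isolated fish by 1.17 ± 0.30 (SE; limma adjusted p = 0.742), against 0.28 ± 0.17 on the s_at probe set. With 32 added before the log2 the dim probe set gave 0.37. The probe sets of this gene thus agreed on mirror fighters as the highest group and on winners and losers below mirror fighters, and disagreed on the place of isolated fish. They share a gene and are not independent measurements.

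Against isolated fish, 3 of the 6 member probe sets were lower in winners without overlap, otpb, pomca and the s_at probe set of gnrh3, where 13.2% of all probe sets were, and 2 of 6 in losers, otpb and the same gnrh3 probe set, where 15.3% were. The dim gnrh3 probe set alone was higher in mirror fighters than in isolated fish without overlap (4.94% of all probe sets), and otpb alone was higher in winners than in losers (3.93%). Without overlap, 4 of the 6 member probe sets were lower in winners than in mirror fighters, otpb, pomca and both of gnrh3, which are 3 genes, where 11.7% of all probe sets were. In losers against mirror fighters 3 of 6 were lower, otpb and both of gnrh3, where 14% of all probe sets were lower without overlap. The choice of otpb used the isolated and loser arrays, so nothing is read from its place in counts that use them. Among the 5 neuropeptide probe sets alone, 2 were lower in winners and 1 in losers against isolated fish. Against mirror fighters these counts were 3 in winners and 2 in losers. The median difference of the 5 neuropeptide probe sets was -0.77 in winners and -0.60 in losers against mirror fighters, beside medians of 0.0045 and -0.0013 over all probe sets. These medians count gnrh3 by both of its probe sets, and with 1 probe set for each of the 4 genes, an alternative added after seeing the data, they were -0.46 in winners and -0.33 in losers. The genes did not move together. Against mirror fighters npy and avp stood at -0.16 and 0.12 in winners and at -0.06 and 0.09 in losers, apart from the lower pomca and gnrh3. Against isolated fish the medians over 5 probe sets were -0.19 in winners and -0.09 in losers, beside 0.0098 and -0.0074, and with 1 probe set per gene they were -0.34 and -0.25. The comparisons against mirror fighters share the mirror fighter arrays, so winners and losers are not independent of each other here.

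Other regulators of hypothalamic neurons were read from a list of 40 genes, 31 of them measured. None was called in any comparison. Their median difference was -0.04 in losers and -0.05 in winners against isolated fish, and 0.09 in mirror fighters. The medians over all probe sets were -0.0074, 0.0098 and 0.0038. Against mirror fighters the list median was -0.19 in winners and -0.14 in losers, beside 0.0045 and -0.0013 over all probe sets. Of the 31, 17 were below 0 in losers against isolated fish and 14 above. In mirror fighters against isolated fish 22 were above 0 and 9 below. Against mirror fighters 20 were below 0 and 11 above in winners, and 19 below and 12 above in losers.

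The 3 members of this list with the smallest F-test p over the 4 groups were hmx3a, nkx2.1 and ascl1a. The homeobox gene nkx2.1, which marks the ventral hypothalamus, read 5.45, 5.32 and 5.54 in isolated fish and 5.57, 5.64 and 5.23 in mirror fighters. In winners it read 4.85, 4.68 and 5.22, and in losers 4.17, 4.41 and 4.71, the same order of groups as otpb. Losers differed from isolated fish by -1.01 ± 0.19 (SE; limma adjusted p = 0.0504), just outside the threshold. The nkx2.1 signal was low, with a mean of 5.07 over all arrays, just above the dim limit. The homeobox gene hmx3a, another hypothalamic factor, read 6.50, 6.56 and 6.55 in losers and no lower than 6.79 on any other array. Its difference was -0.56 ± 0.12 against isolated fish (limma adjusted p = 0.0693) and -0.73 ± 0.12 against mirror fighters (limma adjusted p = 0.0523). The proneural gene ascl1a was lowest in winners, with a mean of 6.38 ± 0.34 (SD, n = 3) against 6.72 ± 0.16 in losers and 7.10 ± 0.08 in isolated fish.

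**Figure D3:**
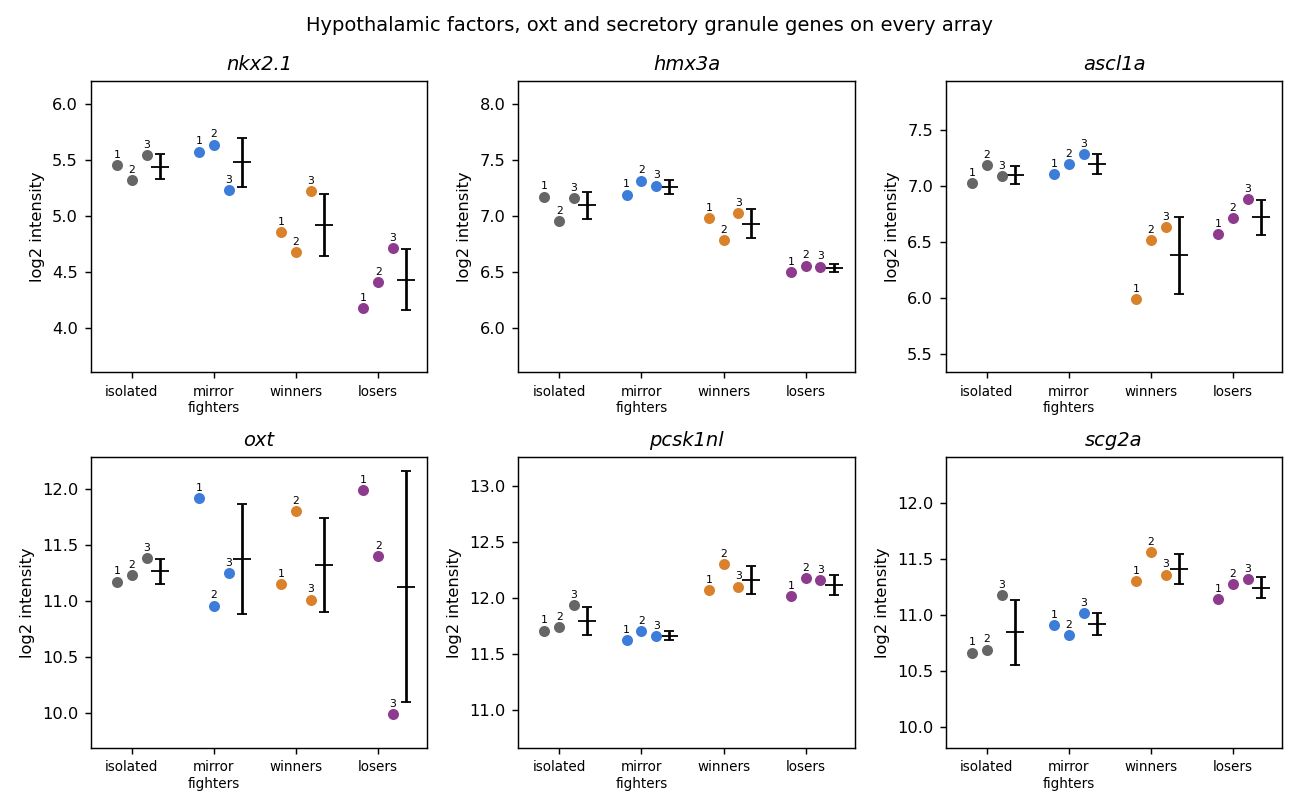
Log2 intensity (y axis, each panel spanning the same number of log2 units) of 3 hypothalamic regulators, of oxt and of the secretory granule genes pcsk1nl and scg2a on the 12 arrays, by group (x axis); points are arrays with their replicate number, and the dash with bars is the group mean ± SD (n = 3). For hmx3a the losers sit between 6.50 and 6.56, below all other arrays; for oxt, loser array 3 lies at 9.98.

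The partners known to act beside Otp in mouse neuroendocrine neurons were looked at for that role and not by their values. The gene arnt2, whose product pairs with that of Sim1, was read on its brighter probe set, and values of the other are not given here. Its means were 5.66 ± 0.15 (SD, n = 3) in isolated fish, 6.02 ± 0.31 in mirror fighters, 6.55 ± 0.55 in winners and 6.50 ± 0.20 in losers. By these means the groups high in otpb were low in arnt2, though mirror fighter arrays reached 6.32 and winner arrays began at 5.97. Losers minus isolated fish was 0.83 ± 0.26 (SE; limma adjusted p = 0.126). The POU factor pou3f2b differed between the same groups by -0.30 ± 0.20 (limma adjusted p = 0.417). The sim1a probe set was very dim, with a group mean no higher than 3.55 and loser arrays from 0.00 to 3.80, and its difference between losers and isolated fish was -0.42 ± 0.78 (SE; limma adjusted p = 0.79).

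Other hypothalamic neuropeptides and releasing factors numbered 23 measured of 68 listed, and none was called. Their median was -0.12 in winners and -0.02 in losers against isolated fish. The lowest F-test p-values belonged to nmba, nucb2b and adcyap1a. The dim nmba, encoding a neuromedin B, stood at -1.20 ± 0.27 (SE) in losers against isolated fish (limma adjusted p = 0.0791), and nucb2b, encoding a nesfatin precursor, at -1.002 ± 0.26 (limma adjusted p = 0.0951). The PACAP gene adcyap1a had means of 6.86 in mirror fighters, 6.602 in isolated fish, 6.31 in losers and 6.23 in winners, the order of groups that the s_at probe set of gnrh3 had. The other gonadotropin-releasing hormone gene on the array, gnrh2, differed between losers and mirror fighters by 0.44 ± 0.42 (limma adjusted p = 0.6), with all groups overlapping.

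Genes that process and pack the precursors were represented by 12 of 36 listed, with none called. Their median was 0.17 in winners and 0.09 in losers against isolated fish, and 0.23 and 0.19 against mirror fighters. The genes of the list did not all move in 1 direction. Against isolated fish 8 genes were above 0 and 4 below in winners, the lowest at -0.51. In losers 7 were above and 5 below, the lowest at -0.56. Against mirror fighters 9 were above and 3 below, in winners as in losers. The proSAAS gene pcsk1nl, whose product inhibits a prohormone convertase, had means of 11.79 ± 0.12 (SD, n = 3) in isolated fish, 11.66 ± 0.04 in mirror fighters, 12.15 ± 0.12 in winners and 12.11 ± 0.09 in losers. Its winner and loser arrays all lay above the others, by 0.45 ± 0.12 (SE) for losers against mirror fighters (limma adjusted p = 0.139). The granin gene scg2a and the carboxypeptidase gene cpe, which trims cut peptides, stood at 0.57 ± 0.16 (limma adjusted p = 0.132) and 0.36 ± 0.13 (limma adjusted p = 0.192) in winners against isolated fish. The summed neuronal markers above were also higher in winners and losers than in the other groups on average, though isolated array 3, at 15.39, lay above all loser arrays, and their part in these genes was not tested.

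Receptors for neuropeptides were mostly dim, 12 of the 17 measured, of 58 listed. None was called. The melanocortin receptor gene mc4r, a target of peptides cut from the pomca product, read lower in losers than in mirror fighters without overlap (-0.48 ± 0.15 SE, limma adjusted p = 0.167). The dim opioid receptor gene oprm1 stood at 0.67 ± 0.21 in winners against isolated fish (limma adjusted p = 0.149), and the dim npy4r, a receptor of the NPY family, at 0.67 ± 0.22 in losers (limma adjusted p = 0.14).

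Among 8410 probe sets of other genes that were not dim and carried a single symbol, those nearest to otpb over the 12 arrays were found by the root mean square difference of log2 deviations from each probe set's own mean. The 5 nearest were slc38a7 and slc38a5b, both amino acid transporter genes, the ubiquitin-conjugating enzyme gene ube2d1b, the RNA exosome gene exosc4 and the mitochondrial thymidine kinase gene tk2. Their distances were 0.19 to 0.20, where the deviations of otpb itself had a root mean square of 0.53. All 5 had isolated and mirror fighter means above those of winners and losers, for example 8.88 and 8.84 against 8.13 and 7.97 for ube2d1b. They were picked from many for this likeness, which favours that order, and these arrays share the brighter hybridization controls of winners and losers. None belongs to the hypothalamic lists.

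**Figure D4:**
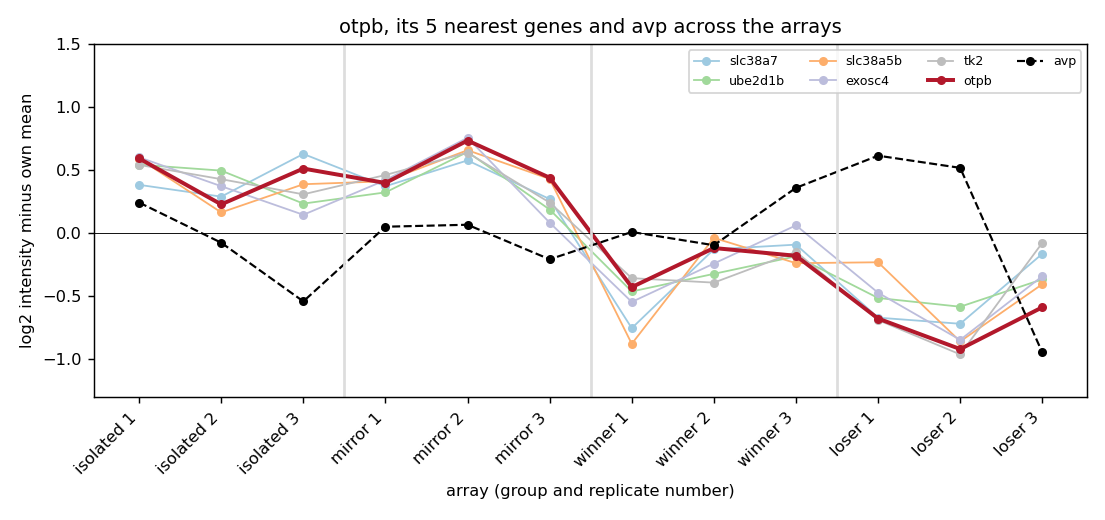
Log2 intensity minus each probe set's own mean (y axis) on the 12 arrays in group order (x axis) for otpb (thick line), its 5 nearest genes (thin lines) and avp (dashed). The otpb line and its neighbours lie above 0 on all isolated and mirror fighter arrays, and otpb lies below 0 on all winner and loser arrays; the avp line has its highest and its lowest point among the losers.

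For gnrh3, the dim probe set had the largest range of group means among the neuropeptides, 1.26, and its 5 nearest genes were cdpf1, trpt1, mllt10, cnot7 and dkk3b. They lay at distances of 0.39 to 0.42, against 0.61 for the deviations of that probe set itself. Each of these 5 genes had its highest mean in mirror fighters, as the choice by likeness to that dim probe set favours.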

How the data were processed

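RNA (100 ng) was labelled with biotin by a 3 prime in vitro transcription kit, per the labels' protocols, which name both a column kit and Trizol for the extraction. The deposited values are linear signal intensities, 1 for each probe set on each array. The submitters' processing notes name Partek 6.6 without its role, and summary and normalization are not given in the sources used here. Values had a floor of 1, reached by 12 to 24 probe sets per array. Array medians lay between 94.1 and 104 in intensity.

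The log2 was taken without an offset and the 115 control probe sets were left out. Platform symbols were updated by gene identifier (10795 probe sets with 1 symbol, 135 with several, 4572 with none). limma 3.58.1 (R 4.3.3) estimated a mean for each group from all 12 arrays together (8 residual and 2.55 prior degrees of freedom). It gave 6 two-sided contrasts and was tested on simulated data. Lists were counted with the brightest probe set per gene. The members, the 8 lists and the tests were chosen with earlier results of these data known. Named from each list, apart from the neuronal, pineal and olfactory markers, were called genes and the 3 with the smallest F-test p. Besides them oxt, arnt2, pou3f2b, sim1a, gnrh2 and pituitary hormones were named for their roles. The F-test takes any difference among the 4 groups. No protein or promoter sequences were used here.

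Whether equal replicate numbers pair arrays was checked by correlating deviations from group means. The correlations between winner and loser arrays were 0.11, 0.11 and 0.23, all above 0.1. By this hint from the data those arrays were paired in an alternative fit, described below. The main fit took no account of pairing. No other pair of groups met that limit.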

Additional observations from a re-analysis of the deposited data

How the results depend on the processing

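Alternatives were quantile normalization, centring on the array median, 32 added before log2, removal of the dimmest 25% (which leaves out the dim gnrh3 probe set), trend and robust moderation, the replicate block, the hybridization control level as a covariate, and leaving out each array. No neuropeptide probe set was called under any of them. The count of called members, which was otpb alone and is a description because the loser arrays chose that gene, was between 0 and 1 when single arrays were left out, both for losers against isolated fish and for losers against mirror fighters. In the former it was 0 without isolated array 1. In the latter it was 0 without loser array 1 or 2 or any 1 of the 3 mirror fighter arrays, and with the replicate block over 12 arrays. With the covariate both counts were 0 (otpb -0.85 ± 0.34 and -0.94 ± 0.33), and that level and a real fight cannot be told apart here. In the paired fit of winners and losers alone the replicate block left otpb at 0.49 and changed no call. Over all probe sets the calls for losers against isolated fish were 88, against 317 with 32 added, 271 without the dimmest 25%, 162 with trend and robust moderation, 0 with the covariate and 21 to 122 without 1 array. For winners against isolated fish they were 38, against 65, 59, 50, 0 and 15 to 39, and for losers against mirror fighters 27, against 53, 71, 44, 0 and 0 to 27, with 14 under the replicate block. For winners against mirror fighters the count of 1 became 31, 19, 30, 0 and 0 to 5, and 3 after centring, 4 after quantile normalization and 0 with the replicate block or from the winner and mirror fighter arrays alone. Over the fits without 1 array, mirror fighters against isolated fish had 0 or 1 call and winners against losers 0 to 2.

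Some differences changed sign, most of them near 0. The largest turns came with the covariate, in avp against isolated fish and mirror fighters. Those of pomca and of the dim gnrh3 probe set also turned with it, and the cause was not tested. After quantile normalization avp was -0.014 in winners minus losers. After centring npy was 0.00064 in losers and 0.010 in mirror fighters minus isolated fish. With the covariate avp was -1.37 in winners and -1.22 in losers minus isolated fish, -1.43 and -1.28 minus mirror fighters, and -0.15 in winners minus losers, and pomca was 0.21 and 0.28 minus isolated fish and 0.11 and 0.19 minus mirror fighters, and the dim gnrh3 probe set was 0.78 in winners minus isolated fish. Without 1 array, avp ranged from -0.089 to 0.69 in losers minus isolated fish, -0.18 to 0.60 in losers minus mirror fighters, -0.11 to 0.28 in mirror fighters minus isolated fish, -0.47 to 0.31 in winners minus losers and -0.013 to 0.21 in winners minus mirror fighters. The dim gnrh3 probe set ranged from -0.14 to 0.37 in losers and -0.35 to 0.16 in winners minus isolated fish and from -0.37 to 0.025 in winners minus losers, where the s_at probe set ranged from -0.18 to 0.037. For npy the range was -0.15 to 0.020 in losers minus mirror fighters and -0.15 to 0.059 in mirror fighters minus isolated fish. In mirror fighters minus isolated fish otpb ranged from -0.028 to 0.15 and pomca from -0.12 to 0.31, and pomca from -0.53 to 0.075 in winners minus losers. Counting all probe sets of the list genes gave 0 calls, as did the brightest alone. Ranked by Pearson r over the 12 arrays, the genes most like otpb were kat7b (0.968), spock3 (0.967), atp6v1c1a (0.96), msl1b (0.955) and nudt21 (0.954), none of them among the 5 nearest by distance. Signal near the dim limit restricts what pomca, nkx2.1, the dim gnrh3 probe set, sim1a and most receptors can show.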
